A study of Mus musculus with 18 samples.

Results

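Retinoid metabolism and storage were read in mouse liver through 9 genes: Rdh16f2, Rdh16, Rdh11, Lrat, Rbp4, Aldh1a1, Aldh1a7, Cyp26a1 and Bco1. Every probe set of the Mouse430_2 expression array that is paired with exactly 1 of these symbols was taken, which gave 11 of the 45037 probe sets that are no controls. Rdh11 and Lrat have 2 probe sets each and the other 7 genes have 1. A further probe set is paired with Rdh16 and a second gene together, and it was left out.

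Livers of male C57BL/6J mice were profiled one mouse to an array, and 3 groups held 6 arrays apiece. The first group ate a Western-style diet with 0.05% quercetin, a plant flavonol, for 20 weeks. That diet took 39.9% of its energy from fat and 34% from sucrose, and held 20% butter, 1% soy oil and 0.15% cholesterol. The second group ate the same Western-style diet without quercetin, and the third ate the control diet AIN93G, each for 20 weeks. All mice were bought at 5 weeks of age and ate a standard chow before the trial. They were kept 3 to a cage and the cages of the single mice are not given, so the p-values treat mice of a cage as independent. The labels set the 3 diets side by side, which asks how Western feeding and added quercetin bear on the liver transcriptome.

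Vitamin A reaches the liver as retinyl ester or as provitamin A carotenoid. Hepatocytes take it up and release retinol bound to its plasma carrier, while hepatic stellate cells hold the body's largest store as retinyl ester in lipid droplets. Retinol is oxidised reversibly to retinal by alcohol and short-chain retinol dehydrogenases, retinal is oxidised irreversibly to retinoic acid by retinal dehydrogenases, and retinoic acid, the ligand of the nuclear receptors RAR, is cleared by CYP26 enzymes.

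Levels below are log2(signal + 16) after quantile normalization across arrays, and a difference of levels is on that scale. A fold is therefore a ratio of signal + 16, which understates the change of a dim gene. Arrays 4 and 5 of the control group were nearly identical (Pearson r = 0.999662 over probe sets on the linear scale, against 0.995908 for the next closest pair of arrays) and were averaged into 1 sample, which leaves 6, 6 and 5 samples. Trimmed mean signals before normalization ran from 82.9 to 96.0 in Western with quercetin, from 80.7 to 102.5 in Western and from 67.2 to 81.3 in control arrays. The log2 ratio of the 3′ to the 5′ actin probe set, a sign of RNA quality, averaged 0.55 ± 0.08 in Western with quercetin, 0.54 ± 0.11 in Western and 0.69 ± 0.06 in control samples (SD, n = 6, 6 and 5). It thus moved with diet, and beyond the covariate fits given below its part in the results was not tested. The summed signal of 9 hepatocyte marker genes was 58192.5 to 62605.3 in Western with quercetin, 58108.6 to 61848.5 in Western and 60656.3 to 63355.8 in control livers. Adipocyte markers Adipoq and Lep were too dim to test, and the 3 measured adipocyte markers summed to at most 28.0 in any sample.

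The genes of the set did not move as a block. Retinol dehydrogenases Rdh16f2 and Rdh11 were lower in both groups fed the Western diet, set against control. Aldh1a7 passed as slightly higher only in Western against control, and the brighter Lrat probe set as higher only in Western with quercetin against control. In the other Western-fed group both differed from control in the same direction without passing. Both calls were narrow and were lost when some single samples were left out. Levels of Rdh16, Rbp4, Aldh1a1, Cyp26a1 and Bco1 passed in no comparison. By limma with Benjamini-Hochberg adjustment over all 33778 probe sets kept, at an adjusted p under 0.05, 4 of the 11 probe sets passed in Western against control livers, 1 higher and 3 lower, where 4.35% of all probe sets passed (2.9% higher and 1.45% lower). Western with quercetin against control again gave 4 of 11, 1 higher and 3 lower, where 2.85% of all passed (1.86% higher and 0.986% lower). In each of these comparisons both Rdh11 probe sets are among the lower ones, so the calls cover 3 of the 9 genes. The genes were chosen with earlier results of these data known, so an excess over the background is no independent evidence. With quercetin against Western alone, limma called 0 of the 11 and 0 of all probe sets (a background of 0%), and at an unadjusted p under 0.05 it had 1 of the 11 against 1105 of all, or 3.27%. The unadjusted counts against control were 5 of 11 for Western (18.3% of all probe sets) and 7 of 11 for Western with quercetin (15.8%).

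A second, descriptive count asked in how many probe sets the samples of the groups did not overlap. In Western against control these were 3 of 11, 1 higher and 2 lower, where 4.72% of all did not overlap (2.84% higher and 1.89% lower). Western with quercetin and control gave 5 of 11, 2 higher and 3 lower, where 3.3% of all did not overlap (1.88% higher and 1.42% lower). The same count for Western with quercetin against Western was 1 of 11, in the higher direction, where 0.157% of all did not overlap (0.0799% higher and 0.077% lower). The median difference of the 11 was -0.06 in Western against control, beside -0.01 over all probe sets, and -0.05 in Western with quercetin against control, beside -0.01. Both of these comparisons use the same control samples, so their like counts are not independent.

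**Figure D1:**
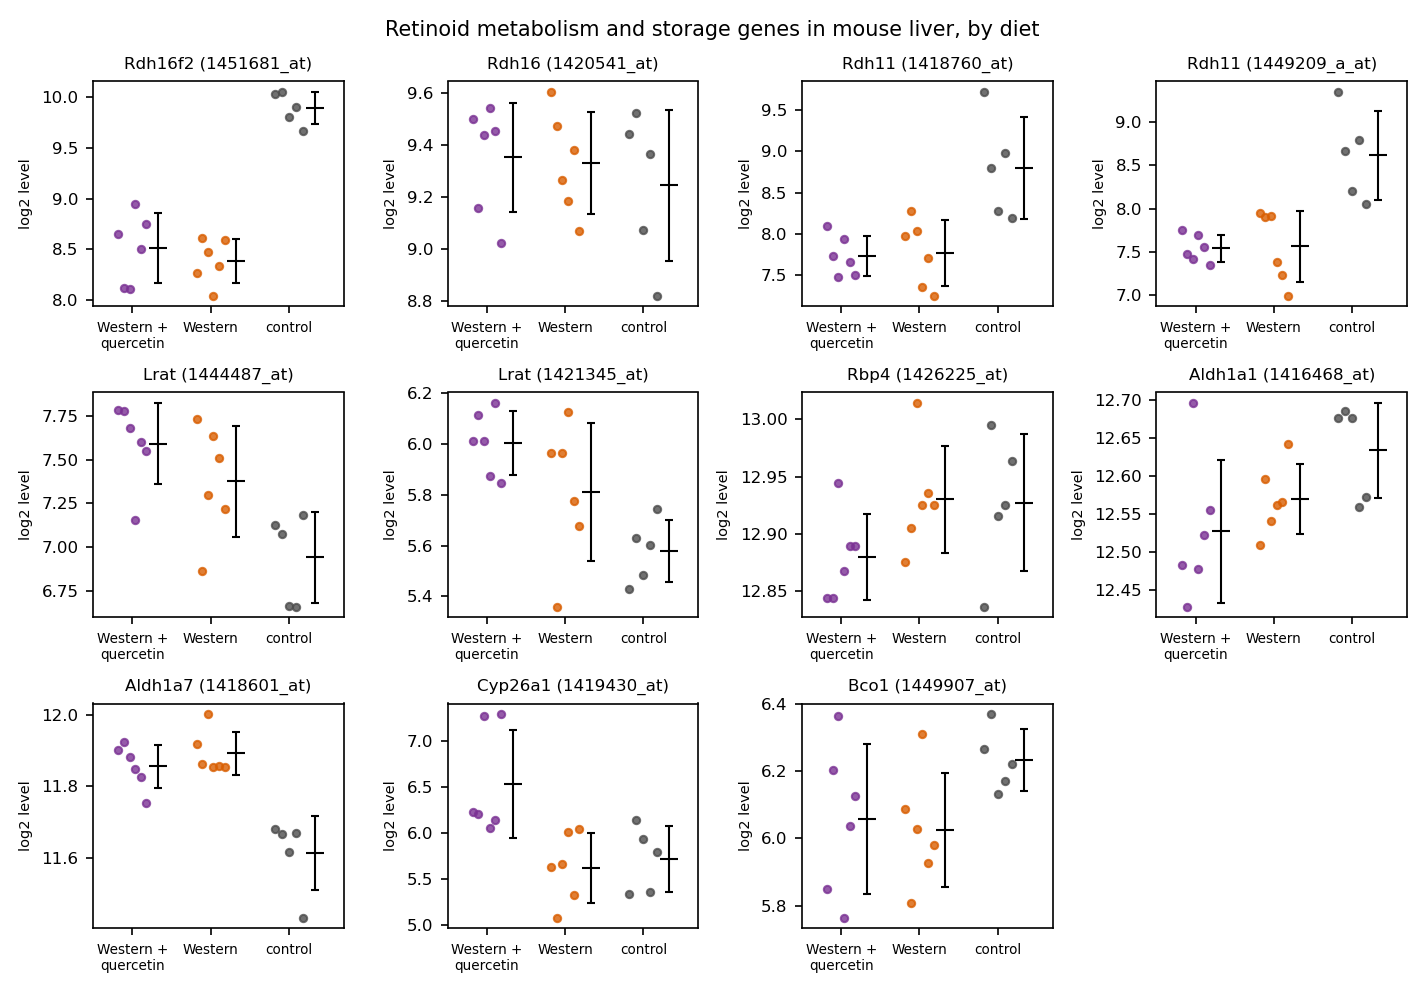
Log2 level (log2(signal + 16), quantile normalized) of each of the 11 probe sets in every sample, with Western with quercetin, Western and control from left to right and the group mean and SD marked. All 12 livers of the Western-fed groups lie below the 5 control samples for Rdh16f2, and the 6 quercetin livers lie above the 6 Western livers for Cyp26a1.

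Rdh16f2 encodes a short-chain dehydrogenase of the Rdh16 family, enzymes of the endoplasmic reticulum that oxidise retinol and several hydroxysteroids. Its level was 8.66, 8.12, 8.11, 8.95, 8.50 and 8.75 in the Western with quercetin livers and 8.27, 8.61, 8.47, 8.04, 8.34 and 8.59 in the Western livers. The control samples stood at 10.03, 10.05, 9.81, 9.90 and 9.67. No liver of either Western-fed group reached the lowest control sample. The group means were 8.51 ± 0.34, 8.39 ± 0.22 and 9.89 ± 0.16 (SD, n = 6, 6 and 5). Rdh16f2 fell by 1.50 ± 0.15 (SE) in Western against control, 2.84-fold lower, with a 95% interval of -1.81 to -1.20 and an adjusted p of 1.35e-05 by limma. With quercetin it fell by 1.38 ± 0.15 against control, 2.60-fold lower (limma adjusted p = 8.85e-05). Between quercetin and Western livers the difference was 0.13, with an interval of -0.17 to 0.42. Of the 11 probe sets this one had the largest differences from control, and both stayed past the threshold when any 1 sample was left out. Among the samples numbered 4 to 6 alone, the difference of Western with quercetin from control was -1.05 with a limma adjusted p of 0.0922. In that set the only control samples are the averaged arrays 4 and 5, counted as 1 sample, and control 6. Among the samples numbered 1 to 3 the difference was -1.67 with an adjusted p of 0.00491.

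Rdh16, the neighbouring family member that gives the family its name, showed no such difference. Its level ran from 9.02 to 9.54 (median 9.45) in Western with quercetin, from 9.07 to 9.61 (median 9.32) in Western, and was 9.44, 9.52, 9.07, 9.36 and 8.82 in control livers. The 3 groups covered nearly the same range. The difference was 0.09 in Western against control (95% interval -0.20 to 0.37, limma adjusted p = 0.803) and 0.11 in Western with quercetin against control (interval -0.17 to 0.39, adjusted p = 0.759).

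The contrast between the pair was read within each array as the log2 level of Rdh16f2 minus that of Rdh16, of which only the shift between diets is interpretable. That difference averaged -0.84 ± 0.37 in Western with quercetin, -0.94 ± 0.30 in Western and 0.65 ± 0.14 in control samples (SD, n = 6, 6 and 5). It was lower by a shift of -1.59 in Western against control and of -1.49 in Western with quercetin against control. The exact two-sided permutation test gave p = 0.00216 for each, the smallest it can give, and 0.00324 after Benjamini-Hochberg adjustment over 6 such tests. The shift was 0.10 in Western with quercetin against Western (exact permutation p = 0.587). Both pairs tested this way were picked with the levels known, so these p-values are no independent evidence. Scaling of the arrays cancels in this quantity apart from the offset, and with values as deposited the shifts were -1.60 and -1.50.

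Both genes lie in a cluster of related retinol dehydrogenases on chromosome 10, Rdh16f2 between Rdh19 and Rdh7 and Rdh16 between Rdh9 and Rdh19. Probe sequences were not used here, so how far a probe set of this family also binds a relative's RNA was not tested. Their promoters, from 250 bases before to 50 bases after the transcript start (RefSeq, build GRCm38.p6, plus strand), are shown because these neighbours differ in their levels by diet. Capitals mark AGGTCA, the core half-site of many nuclear receptors, on either strand, so that it may read as TGACCT. The windows are chr10:127866226-127866525 for Rdh16f2 and chr10:127800903-127801202 for Rdh16.
Rdh16f2: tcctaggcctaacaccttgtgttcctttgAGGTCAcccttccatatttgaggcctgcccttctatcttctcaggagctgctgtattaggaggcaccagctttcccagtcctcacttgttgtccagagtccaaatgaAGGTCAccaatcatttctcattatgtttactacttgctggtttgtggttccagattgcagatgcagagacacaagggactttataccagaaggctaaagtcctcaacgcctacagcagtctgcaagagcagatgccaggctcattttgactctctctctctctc
Rdh16: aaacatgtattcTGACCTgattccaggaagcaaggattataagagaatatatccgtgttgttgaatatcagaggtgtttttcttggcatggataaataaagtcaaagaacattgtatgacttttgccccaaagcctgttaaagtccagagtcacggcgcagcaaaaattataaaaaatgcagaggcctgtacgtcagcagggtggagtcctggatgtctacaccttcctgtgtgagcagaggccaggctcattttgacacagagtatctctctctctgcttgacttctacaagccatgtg
The Rdh16f2 window holds the motif 221 and 114 bases before the start, and the Rdh16 window holds it 238 bases before the start. Over 252 aligned base pairs the windows shared 166, or 65.9%. AGGTCA occurs in 16.3% of the 32851 promoter windows of the table and in 4 of the 12 windows of the 9 genes, namely 1 each of Rdh16f2, Rdh16, Rdh11 and Bco1. A match describes the letters only and marks no binding site.

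Rdh11 encodes a retinal reductase of the endoplasmic reticulum that also reduces lipid-derived aldehydes. Its brighter probe set, 1418760_at, was at 8.09, 7.73, 7.48, 7.94, 7.66 and 7.50 in Western with quercetin livers and at 7.97, 8.27, 8.03, 7.36, 7.71 and 7.25 in Western livers. The control samples had 9.72, 8.80, 8.28, 8.98 and 8.19. Quercetin livers lay wholly below the controls, whereas Western liver 2 at 8.27 passed the lowest control at 8.19. The level fell by 1.03 ± 0.23 in Western against control, 2.04-fold lower (limma adjusted p = 0.0153), and by 1.06 ± 0.23 in Western with quercetin against control, 2.08-fold lower (adjusted p = 0.0172). Means were 7.74 ± 0.24, 7.77 ± 0.40 and 8.79 ± 0.62 (SD, n = 6, 6 and 5), so the controls spread most.

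The other probe set, 1449209_a_at, gave nearly the same sizes. It ran from 7.36 to 7.75 (median 7.51) in Western with quercetin, from 6.99 to 7.94 (median 7.64) in Western, and stood at 9.34, 8.67, 8.21, 8.78 and 8.06 in control livers, with no overlap of either Western-fed group with control. It fell by 1.05 ± 0.21 in Western against control (limma adjusted p = 0.00625) and by 1.07 ± 0.21 in Western with quercetin against control (adjusted p = 0.00826). The probe sets differed in Western with quercetin against Western by -0.03 (95% interval -0.49 to 0.43) and -0.02 (interval -0.43 to 0.39). With the actin ratio as a covariate, 1418760_at was no longer past the threshold against control (adjusted p = 0.134 for Western and 0.129 for Western with quercetin), while 1449209_a_at was (0.0467 and 0.0474). Within the samples numbered 1 to 3 and 4 to 6, 1418760_at in Western against control had differences of -0.84 (adjusted p = 0.311) and -1.14 (adjusted p = 0.0715), and 1449209_a_at had -0.82 (adjusted p = 0.204) and -1.21 (adjusted p = 0.0468). Against control, Western with quercetin gave in those sets -1.16 (adjusted p = 0.114) and -0.88 (adjusted p = 0.197) for 1418760_at, and -1.19 (adjusted p = 0.0496) and -0.89 (adjusted p = 0.171) for 1449209_a_at.

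Lrat encodes lecithin retinol acyltransferase, which esterifies retinol for storage and in liver is known mainly from stellate cells. In whole liver, more cells of a type and more RNA per cell cannot be told apart, and this holds for every level given here. Probe set 1444487_at was at 7.78, 7.78, 7.68, 7.16, 7.60 and 7.55 in Western with quercetin livers and at 7.73, 6.86, 7.30, 7.63, 7.51 and 7.22 in Western livers. The control samples had 7.12, 7.08, 6.66, 6.66 and 7.18. Of the 6 quercetin livers, 5 were above every control sample, and liver 4, at 7.16, lay within their range. Western livers overlapped the controls through liver 2, at 6.86. The level rose by 0.65 ± 0.15 in Western with quercetin against control, 1.57-fold (limma adjusted p = 0.0269). Western against control differed by 0.44 ± 0.15 (95% interval 0.11 to 0.76, adjusted p = 0.121), and Western with quercetin against Western by 0.21 (interval -0.09 to 0.52).

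The second Lrat probe set, 1421345_at, ran from 5.85 to 6.16 in Western with quercetin and from 5.36 to 6.12 in Western, and was 5.43, 5.63, 5.48, 5.60 and 5.74 in control livers. Quercetin and control livers did not overlap, yet the difference of 0.42 ± 0.12 gave a limma adjusted p of 0.0535. Over the 11 fits that each left out 1 sample, the adjusted p ran from 0.0427 (without quercetin liver 6) to 0.119, and 1 passed. This difference passed in 6 of 13 other settings, where the adjusted p ran from 0.00361 to 0.478. Probe set 1421345_at and Aldh1a7 were the 2 that lay wholly above control in that comparison. The call on 1444487_at against control is a narrow one: its adjusted p ran from 0.0137 to 0.0775 over the 11 fits that each left out 1 sample, and it was past 0.05 without quercetin liver 1, 2, 3 or 5, without control 3 and without the averaged control arrays. It also missed the threshold in 5 of 14 other settings, among them 0.126 with the actin covariate, 0.114 among samples 1 to 3, 0.325 among samples 4 to 6 and 0.0514 with an offset of 1 in place of 16. Western against control passed for this probe set without Western liver 2 (0.54, adjusted p = 0.0337), on the deposited values (0.73, adjusted p = 0.00948) and after centring the medians of the arrays (0.58, adjusted p = 0.0433).

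Some markers of stellate cells were higher in the Western-fed groups than in control livers. Of 15 stellate cell markers, 7 rose and 0 fell in Western against control, and 5 rose and 0 fell in Western with quercetin against control, with median differences of 0.39 and 0.27 where all probe sets had -0.01 in both. The 7 became 0 among samples 1 to 3, 3 among samples 4 to 6 and 2 with the actin covariate, and the 5 became 3, 0 and 1. Their summed signal was 3879 to 6412 in Western with quercetin, 4161 to 5778 in Western and 3112 to 3502 in control livers. The collagen genes Col1a1 and Col3a1, which activated stellate cells make in quantity, led with differences of 1.78 and 1.86 in Western against control. Reln and Hand2, markers of quiescent as well as active stellate cells, differed by 0.21 (limma adjusted p = 0.287) and 0.01 (adjusted p = 0.968). By limma, none of the 15 passed in Western with quercetin against Western, where their median was -0.11 while Lrat probe set 1444487_at stood at 0.21. The part of stellate cell content in the Lrat levels was not tested. Of 12 macrophage markers, 5 rose and 0 fell in each Western-fed group against control. Beside these marker counts, a fit of the brightest probe set of every gene had 749 of 13645 genes higher and 431 lower in Western against control. In Western with quercetin against control it had 468 higher and 270 lower. That fit has its own filter and adjustment, while the marker counts come from the fit of all 33778 probe sets kept.

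Rbp4 encodes retinol binding protein, the plasma carrier on which hepatocytes release retinol. Its single probe set was brighter than 99.9% of all probe sets and hardly varied. Levels ran from 12.84 to 12.94 (median 12.88) in Western with quercetin, from 12.88 to 13.01 (median 12.93) in Western, and were 12.84, 12.99, 12.92, 12.93 and 12.96 in control livers. The groups overlapped nearly wholly. The difference was 0.003 in Western against control (95% interval -0.13 to 0.14) and -0.05 in Western with quercetin against control (interval -0.18 to 0.09). With quercetin against Western it was -0.05 (interval -0.18 to 0.08).

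Aldh1a1 encodes the main hepatic retinal dehydrogenase, and Aldh1a7 its rodent relative, which is known to act on other aldehydes rather than retinal. Aldh1a1 was at 12.43 to 12.70 (median 12.50) in Western with quercetin, at 12.51 to 12.64 (median 12.56) in Western, and at 12.68, 12.68, 12.68, 12.56 and 12.57 in control livers. It differed by -0.06 in Western against control (95% interval -0.21 to 0.08) and by -0.11 in Western with quercetin against control (interval -0.25 to 0.04), with limma adjusted p-values of 0.702 and 0.504. The groups overlapped in each comparison.

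Aldh1a7 stood at 11.90, 11.92, 11.88, 11.85, 11.83 and 11.75 in Western with quercetin livers and at 11.92, 11.86, 12.00, 11.85, 11.86 and 11.85 in Western livers. The control samples had 11.68, 11.67, 11.62, 11.67 and 11.43. Every liver of both Western-fed groups lay above every control sample. Aldh1a7 rose by 0.28 ± 0.07 in Western against control, 1.21-fold (limma adjusted p = 0.0326), while the difference of 0.24 ± 0.07 in Western with quercetin against control gave an adjusted p of 0.0799. That second difference passed in 5 of 14 other settings, where its adjusted p ran from 0.0106 to 0.383. The Western call was lost in 7 of the 11 fits that left out 1 sample (control 2, 3 or 6, or Western 1, 3, 4 or 5), with adjusted p-values from 0.037 to 0.0916 over the 11, and it was lost within the samples numbered 1 to 3 (0.27, adjusted p = 0.363) and 4 to 6 (0.31, adjusted p = 0.251), with the actin covariate (adjusted p = 0.24), after centring the array medians (adjusted p = 0.0885) and in a fit of the 2 groups alone (adjusted p = 0.065).

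Aldh1a1 and Aldh1a7 are neighbours on chromosome 19. The level of Aldh1a7 minus that of Aldh1a1 within each array averaged -0.67 ± 0.12 in Western with quercetin, -0.68 ± 0.09 in Western and -1.02 ± 0.09 in control samples (SD, n = 6, 6 and 5). The shift was 0.34 in Western against control and 0.35 in Western with quercetin against control, each with an exact two-sided permutation p of 0.00216, the smallest possible, and 0.00324 after adjustment over the 6 tests. It was 0.006 in Western with quercetin against Western (exact permutation p = 0.918). This pair too was picked with the levels known, so these p-values are no independent evidence. The Aldh1a7 promoter window and the second of the 2 Aldh1a1 windows shared 224 of 282 aligned bases, or 79.4%, and the first Aldh1a1 window shared 171 of 262, or 65.3%. As with the Rdh16 family, binding of a relative's RNA was not tested.

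**Figure D2:**
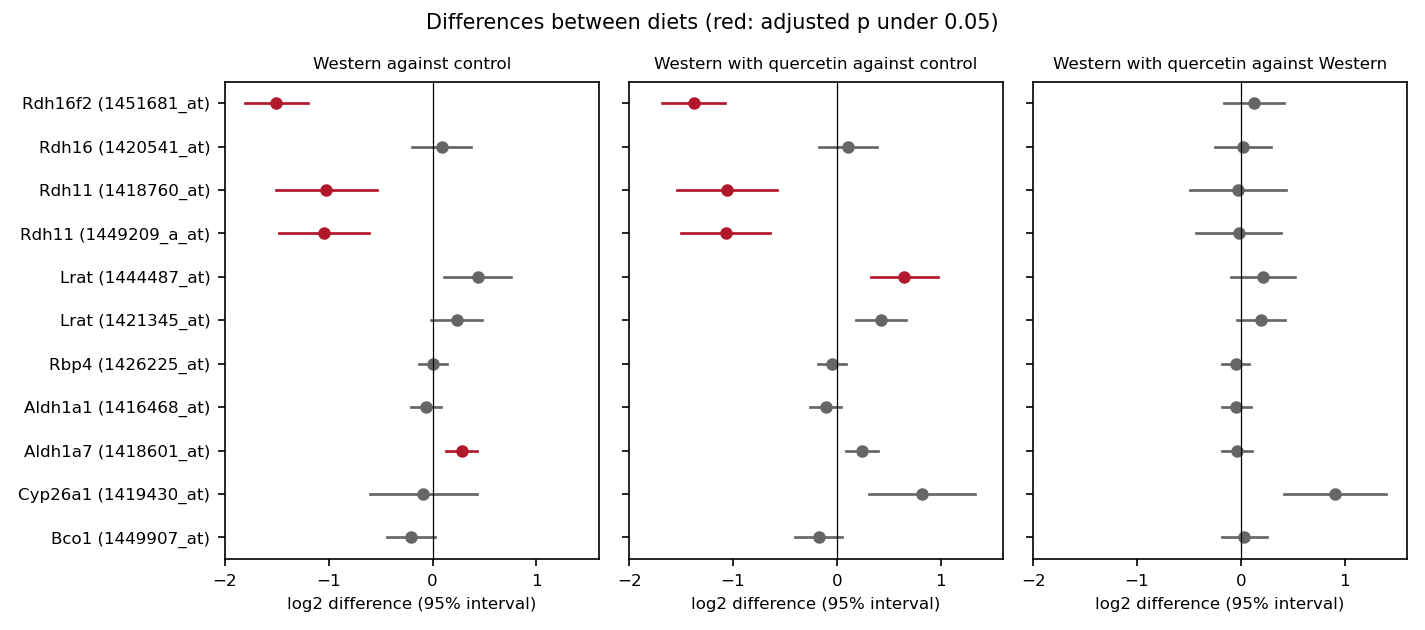
Difference of log2 levels with its 95% interval for the 11 probe sets in Western against control, Western with quercetin against control and Western with quercetin against Western. Rdh16f2 lies at -1.50 and -1.38 against control, both Rdh11 probe sets lie near -1.05, and Cyp26a1 at 0.91 is the farthest from 0 in Western with quercetin against Western.

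Cyp26a1 encodes the cytochrome P450 that clears retinoic acid and is a classical target of it. Its level was 6.23, 6.21, 7.27, 6.06, 6.14 and 7.30 in Western with quercetin livers and 5.63, 5.08, 5.66, 6.02, 5.32 and 6.04 in Western livers. The control samples had 5.34, 6.15, 5.94, 5.36 and 5.80. The quercetin livers all lay above the Western livers, though by as little as 6.06 against 6.04, and livers 3 and 6 stood well above the other 4. Control 2 at 6.15 lay within the quercetin range. Means were 6.54 ± 0.59, 5.63 ± 0.38 and 5.72 ± 0.36 (SD, n = 6, 6 and 5).

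In Western with quercetin against Western, the Cyp26a1 difference was 0.91 ± 0.23, 1.88-fold, with a 95% interval of 0.42 to 1.40 and all 6 quercetin livers above the Western mean. Its unadjusted limma p was 0.00099 and its adjusted p was 1 over all probe sets, so it did not pass. It was the single probe set of the 11 whose groups did not overlap here, as 27 of all 33778 did in this direction. Against control, Western with quercetin differed by 0.82 ± 0.25 (interval 0.31 to 1.33, adjusted p = 0.0829) and Western by -0.09 (interval -0.60 to 0.42, adjusted p = 0.897). The 0.82 passed in 4 of 14 other settings, among them on the deposited values (1.07, adjusted p = 0.00582), after centring the medians of the arrays (adjusted p = 0.0458) and with control arrays 4 and 5 kept apart (adjusted p = 0.0377). Among samples 1 to 3 quercetin livers differed from Western livers by 1.12, and among samples 4 to 6 by 0.71, neither past the threshold. Cyp26b1, another retinoic acid hydroxylase of the family, had means of 5.67, 5.23 and 5.88 in Western with quercetin, Western and control livers. It differed by 0.43 in Western with quercetin against Western (adjusted p = 1 by limma, and 0.0343 before adjustment). In Western against control it differed by -0.65 (limma adjusted p = 0.0714). With 1 sample left out, the first difference ran from 0.254 to 0.515. The second ran from -0.78 to -0.47, with adjusted p-values from 0.0357 (without the averaged control arrays) to 0.166. Western liver 2 lay lowest at 4.34, where the other Western livers had 5.15 to 5.64.

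The Cyp26a1 promoter window, chr19:37697558-37697857 on the plus strand of GRCm38.p6, is shown because the gene is a known target of RAR through direct repeats near its start. Capitals mark the DR5 retinoic acid response element, a direct repeat of 2 half-sites with a 5-base spacer.
Cyp26a1: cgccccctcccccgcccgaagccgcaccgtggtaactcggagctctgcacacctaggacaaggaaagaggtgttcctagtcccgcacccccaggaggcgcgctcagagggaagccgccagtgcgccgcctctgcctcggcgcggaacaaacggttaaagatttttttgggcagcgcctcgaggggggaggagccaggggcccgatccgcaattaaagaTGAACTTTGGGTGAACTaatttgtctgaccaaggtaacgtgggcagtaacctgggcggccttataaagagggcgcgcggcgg
The match begins 32 bases before the start and reads on the minus strand. Of all 32851 windows 0.0974% hold this element, and among the 12 windows of the 9 genes it was found in Cyp26a1 alone. The DR2 element, in 0.268% of all windows, and TCACNCCAC, a sterol regulatory element, in 1.24%, were found in 0 of the 12, with both strands searched throughout.

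Bco1 encodes the oxygenase that splits beta-carotene into retinal. Its level ran from 5.76 to 6.36 (median 6.09) in Western with quercetin, from 5.81 to 6.31 (median 6.01) in Western, and was 6.27, 6.37, 6.13, 6.17 and 6.22 in control livers. The groups overlapped. The difference was -0.21 in Western against control (95% interval -0.44 to 0.02, limma adjusted p = 0.325) and -0.18 in Western with quercetin against control (interval -0.40 to 0.05, adjusted p = 0.47), and 0.03 in Western with quercetin against Western (interval -0.18 to 0.25). Its promoter window, chr8:117095615-117095914 on the plus strand of GRCm38.p6, is shown as the only one of the 12 that holds a DR1 element. This direct repeat with 1 spacer base is a kind of element to which PPAR and RXR can bind, and binding here was not tested. Capitals mark it.
Bco1: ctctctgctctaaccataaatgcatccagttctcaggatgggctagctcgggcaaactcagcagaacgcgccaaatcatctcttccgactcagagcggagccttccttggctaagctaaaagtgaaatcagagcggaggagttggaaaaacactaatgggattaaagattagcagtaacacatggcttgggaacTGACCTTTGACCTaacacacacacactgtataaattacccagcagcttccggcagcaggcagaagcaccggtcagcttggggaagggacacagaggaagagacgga
The element begins 56 bases before the start and is made of AGGTCA matches at 56 and 49 bases before the start, so these overlap it. DR1 occurs in 0.222% of all windows.

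The rest of the retinoid pathway was followed through 61 further genes, of which 55 had a probe set of their own and 47 were bright enough to test. In Western against control 4 rose, 4 fell and 39 did not pass, with a median of -0.09 against -0.01 over all probe sets. With quercetin against control 2 rose, 2 fell and 43 did not pass (median -0.06), and in Western with quercetin against Western none of the 47 passed (median 0.002). In a fit of the brightest probe set of every gene, 1180 of 13645 genes passed in Western against control, 749 higher and 431 lower. In Western with quercetin against control 738 of them passed, 468 higher and 270 lower. This fit has its own filter and adjustment, while calls on the 47 genes come from the fit of all 33778 probe sets kept. Calls on the 47 genes were sensitive to the samples and settings. In Western against control, where 8 passed, 0 did among samples 1 to 3, 0 among samples 4 to 6 and 1 with the actin covariate. With quercetin against control, where 4 passed, the counts were 1, 0 and 1 in that order, and 10 on the deposited values.

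Rdh5, Adh4, Bco2 and Dhrs3 were the 4 that fell. Rdh5, an 11-cis retinol dehydrogenase known from the eye, had means of 6.92, 6.80 and 7.42 in Western with quercetin, Western and control livers, and fell by 0.62 in Western against control (limma adjusted p = 0.000464) and by 0.50 in Western with quercetin against control (adjusted p = 0.00317, but 0.156 on the deposited values). Adh4, an alcohol dehydrogenase that oxidises retinol, had means of 9.89, 9.96 and 10.55 and fell by 0.59 (adjusted p = 0.00403) and by 0.66 (adjusted p = 0.00281).

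Bco2, the eccentric carotenoid oxygenase of mitochondria, fell by 0.50 in Western against control (limma adjusted p = 0.0148), and Dhrs3, which reduces retinal to retinol, fell by 0.33 (adjusted p = 0.0402). For Western with quercetin against control these 2 genes gave -0.41 (limma adjusted p = 0.0516) and -0.31 (adjusted p = 0.0722). Leaving out 1 sample gave Bco2 adjusted p-values from 0.0379 (without quercetin liver 6) to 0.12. For Dhrs3 they ran from 0.0481 (without the averaged control arrays) to 0.16. Each gene passed in 1 of these 11 fits. In all 4 genes the Western livers lay wholly below the controls, as they did in 1.89% of all probe sets. The 4 were named for passing in this same comparison, so that separation is no independent evidence. With values as deposited, Bco2 (-0.21, adjusted p = 0.193) and Dhrs3 (-0.07, adjusted p = 0.711) did not pass in Western against control. The call on Dhrs3 was lost in 8 of 14 other settings in all and in 8 of the 11 fits that left out 1 sample (control 1, 2 or 3, or Western 1, 3, 4, 5 or 6), with adjusted p-values from 0.0269 to 0.0995.

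Of the genes that rose, Cd36, a fatty acid and carotenoid uptake receptor, had means of 10.24, 10.22 and 9.39 in Western with quercetin, Western and control livers, a difference of 0.83 in Western against control (limma adjusted p = 0.0104) and of 0.84 with quercetin (adjusted p = 0.0129). Rarres1, a retinoic acid responsive membrane protein, had means of 10.14, 10.30 and 9.54, a difference of 0.76 (adjusted p = 0.00647) and, with quercetin against control, of 0.60 (adjusted p = 0.037). Tgm2, the retinoic acid inducible tissue transglutaminase, rose by 0.81 (adjusted p = 0.0375), and Aox1, an aldehyde oxidase that can act on retinal, by 0.44 (adjusted p = 0.0102), both in Western against control. With quercetin against control Tgm2 gave 0.71 (limma adjusted p = 0.088) and Aox1 0.33 (adjusted p = 0.064). For Tgm2 the adjusted p ran from 0.0149 (without quercetin liver 6) to 0.205 when 1 sample was left out, and 1 of 11 fits passed. Western livers lay wholly above the controls in each of these 4 genes, as they did in 2.84% of all probe sets. These genes too were named for passing in this same comparison, so their separation is no independent evidence. The Tgm2 call was lost in 9 of the 11 fits that left out 1 sample, all but those without Western 2 or 6 (adjusted p from 0.0193 to 0.101). That on Rarres1 with quercetin against control was lost in 7 of 11, without control 1, 2 or 3 or quercetin liver 1, 3, 5 or 6 (from 0.0199 to 0.104).

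**Figure D3:**
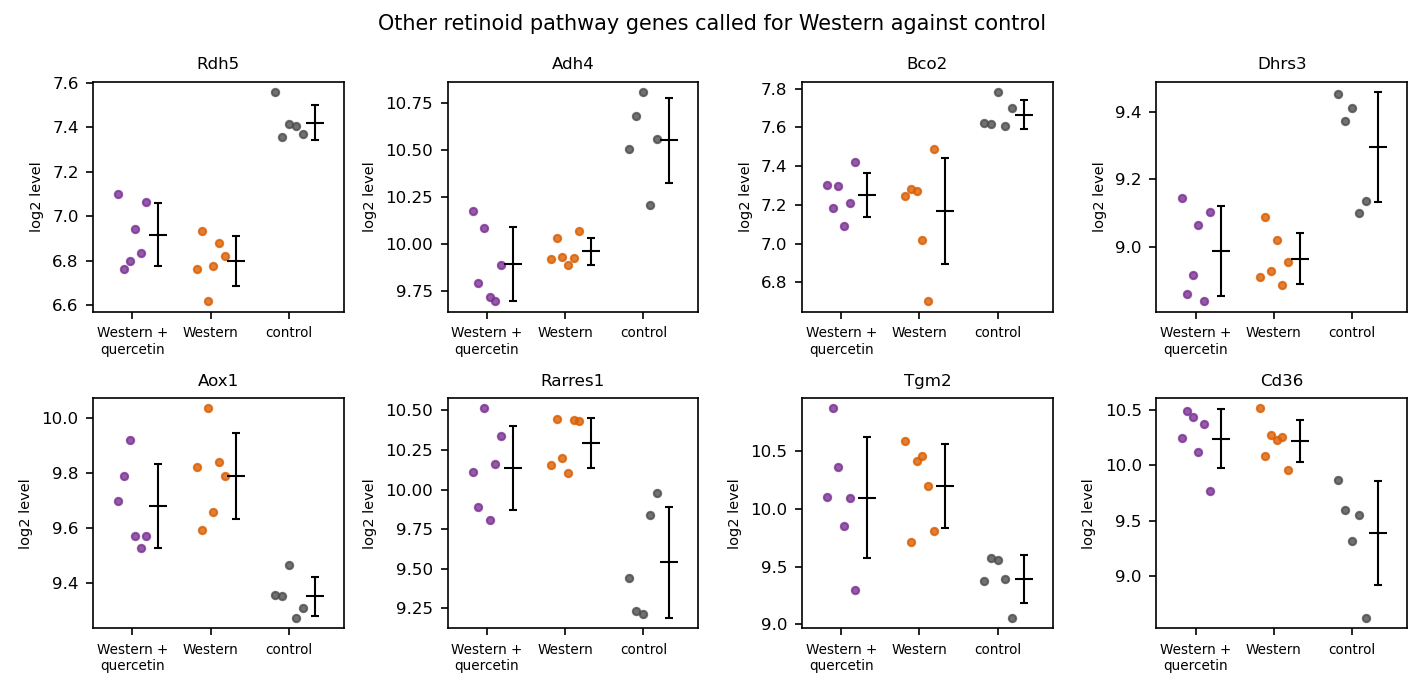
Log2 level of the 8 genes of the wider retinoid list that passed in Western against control, in every sample, with Western with quercetin, Western and control from left to right. Rdh5, Adh4, Bco2 and Dhrs3 are lower and Rarres1, Aox1, Cd36 and Tgm2 higher in all 6 Western livers than in all 5 control samples.

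The genes whose levels ran most like each member's were named by Pearson r over the 17 samples among 14969 genes, with r of the deviations from group means after it, since a shared diet difference alone raises r. For Rdh16f2 these were Hgfac at 0.955 (0.626 for deviations), Agmat at 0.942 (0.424) and Rdh5 at 0.938 (0.553). For Rdh11 they were Ighm at 0.945 (0.928), Nsdhl at 0.940 (0.856) and Pmvk at 0.931 (0.910). Nsdhl and Pmvk encode enzymes of cholesterol synthesis and Ighm an immunoglobulin chain, and within diets their levels still varied with that of Rdh11. For Aldh1a7 they were Gstm1 at 0.943 (0.781), Ifi27l2b at 0.943 (0.750) and Apoa4 at 0.943 (0.762). Lrat ran most like Klf6 at 0.848 (0.712), Tprgl at 0.848 (0.814) and Cd83 at 0.837 (0.732). Rdh16 ran most like Dlat at 0.858 (0.869), Elovl5 at 0.814 (0.839) and Heyl at 0.808 (0.804). The closest to Rbp4 were Aar2 at 0.896 (0.913), Aldh16a1 at 0.808 (0.900) and Azgp1 at 0.800 (0.767). The closest to Aldh1a1 were Bbip1 at 0.816 (0.769), Gjb1 at 0.814 (0.843) and Wrnip1 at 0.809 (0.729). Bco1 had Pan2 at 0.814 (0.776), Tbc1d20 at 0.799 (0.866) and Hinfp at 0.772 (0.722). Cyp26a1 had the weakest likeness, with H2bc18 at 0.706 (0.809), Aqp1 at 0.698 (0.511) and Kpna1 at 0.691 (0.549). All points share the array and its normalization, and the closest of so many genes will be high.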

How the data were processed

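The deposited table gives each probe set an intensity on each of 18 arrays, not on a log scale, with none missing and a range of 0.0118 to 12323.2. How the authors derived these intensity values from the scans is not given in the sources used here, and array medians ran from 12.7 to 23.2. Per the labels' protocols, RNA was column purified, copied with a T7-oligo(dT) primer and labelled with biotin. Of 45101 probe sets, 64 controls were left out. Of the other 45037, 34945 are paired with 1 symbol, 932 with several and 9160 with none.

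After adding 16, signals were put on the log2 scale and normalized by quantiles between arrays, and control arrays 4 and 5 were averaged. Probe sets with a mean under the 25th percentile (4.402) were dropped, which kept 33778 and all 11 of the 9 genes. The fit was limma 3.58.1 in R 4.3.3, with 1 mean per group for the 17 samples, 3 contrasts, two-sided tests and Benjamini-Hochberg adjustment, called at an adjusted p under 0.05. It was tested on simulated data. The number of arrays limits the precision: the median 95% interval was ± 0.26 against control and ± 0.25 between the Western-fed groups. Python 3.11.15 and matplotlib 3.10.9 were used for promoters and figures. Promoter windows of all 9 genes came from RefSeq.

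Named were all probe sets of the 9 genes, every gene of a list of 61 further retinoid genes that passed, up to 6 of that list with the smallest p-values in each comparison (for Western with quercetin against Western the first, Cyp26b1), and the 3 genes most like each member. Of the 61, those without a probe set of their own were not analysed here, and Stra6, Rbp7, Crabp1, Crabp2, Rdh1, Rdh12, Aldh1a3 and Isx were too dim. Marker lists covered stellate, hepatocyte, macrophage, endothelial, cholangiocyte and adipocyte cells. Of 9 hepatocyte markers measured, 1 (Tat) fell in Western against control and 0 passed with quercetin; of 8 endothelial markers 1 rose in each Western-fed group; of 4 cholangiocyte markers and 1 testable adipocyte marker 0 passed. The members, the lists and the contrasts within gene pairs were chosen with earlier results of these data known. Alternatives covered scaling, offset, filter, probe set per gene, blocks, sample subsets, the actin ratio and leaving out each sample. The split of samples into numbers 1 to 3 and 4 to 6 was taken from the replicate numbers and is no batch named in the labels. Controls numbered 4 to 6 are the averaged arrays 4 and 5, counted as 1 sample, and control 6.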

Additional observations from a re-analysis of the deposited data

Results flagged for a closer look

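Of 33 group and probe set combinations checked for a single sample far from the rest of its group, 2 stood out, and chance gives about 1 in 20. Lrat probe set 1444487_at was at 7.16 in Western with quercetin liver 4, against 7.55 to 7.78 in the other 5 livers of that group. Without it the difference of Western with quercetin from control was 0.74 (limma adjusted p = 0.0137). Aldh1a7 was at 11.43 in control sample 6, against 11.62 to 11.68 in the other 4 control samples. Without it the difference of Western from control was 0.23 (limma adjusted p = 0.0916).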

How the results depend on the processing

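Of the 11 probe sets, 4 passed in Western against control. The count was 1 within samples numbered 1 to 3, 2 within those numbered 4 to 6, where fewer samples remained, 2 with the actin ratio as a covariate, whose cause was not tested, and 3 to 5 when 1 sample was left out. In Western with quercetin against control, 4 passed, with 7 for values as deposited, 2 and 0 within the number sets, 2 with the actin covariate and 3 to 5 when 1 sample was left out. In Western with quercetin against Western, 0 passed under each of 14 settings and each sample left out (0 to 0). With a block for numbers 1 to 3 and 4 to 6, which keeps all samples, the counts were 4, 5 and 0. With the replicate number as a block they were 4, 4 and 0. Under that replicate block, Lrat 1444487_at in Western with quercetin against control no longer passed (limma adjusted p = 0.05) and Cyp26a1 in the same comparison did (0.0469). Whether the numbers pair the samples is not settled. Deviations of same-numbered samples correlated at -0.0572 to 0.207, 0.0594 to 0.301 and -0.222 to 0.191 in the 3 comparisons. The correlation was over 0.1 in 4 of 5, 3 of 5 and 3 of 6 pairs.

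Differences that turned sign passed no test. The largest turned values were those of Rdh11 in Western with quercetin against Western. Over the other settings this difference ran from -0.324 to 0.261 for 1418760_at and from -0.374 to 0.330 for 1449209_a_at. With values as deposited, which lift the median probe set by 0.18 in Western and 0.19 in Western with quercetin against control, Western against control gave 0.0228 for Aldh1a1, 0.149 for Cyp26a1 and 0.0687 for Bco1, and Western with quercetin against control gave 0.00565 for Rbp4 and 0.101 for Bco1. With array medians centred, Rbp4 was -0.103 and Cyp26a1 0.00177 in Western against control, and Rdh16 was -0.00712 in Western with quercetin against Western. The actin covariate gave -0.0302 for Rbp4 in Western against control. Within numbers 1 to 3, Rdh16f2 was -0.158 and Rdh16 -0.0828 in Western with quercetin against Western. Within numbers 4 to 6, Western against control gave -0.0159 for Rbp4, 0.0245 for Aldh1a1 and 0.218 for Cyp26a1, and Western with quercetin against Western gave 0.261 and 0.330 for Rdh11 1418760_at and 1449209_a_at, -0.0194 for Lrat 1444487_at and -0.0972 for Bco1. With 1 sample left out, Western against control ran from -0.0208 to 0.155 for Rdh16, -0.0197 to 0.0199 for Rbp4 and -0.185 to 0.0197 for Cyp26a1. Western with quercetin against Western ran from -0.0293 to 0.0892 for Rdh16, -0.135 to 0.0695 and -0.137 to 0.0538 for the Rdh11 probe sets, -0.0282 to 0.0918 for Bco1, -0.0100 to 0.201 for Rdh16f2 over Rdh16 and -0.0272 to 0.0350 for Aldh1a7 over Aldh1a1, the last 2 within-array contrasts being added after the data were seen. The cause of these turns was not tested.

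Over all probe sets, 1468 passed in Western against control and 962 in Western with quercetin against control. As deposited the counts were 5736 (5591 higher) and 5362 (5265 higher), within numbers 1 to 3 they were 64 and 261, within numbers 4 to 6 they were 218 and 24, and with the actin covariate 207 and 149. With a block for numbers 1 to 3 and 4 to 6 they were 1946 and 1255. Fitted on its 2 groups alone, Western with quercetin against control had 556. With array medians centred, 1503 of 1791 and 774 of 935 were higher, beside 979 of 1468 and 629 of 962. Dim probe sets such as Cyp26a1, Bco1 and Lrat 1421345_at sit nearer the offset, where differences are compressed.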
